A study of Mus musculus with 12 samples.

Results

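The enzymes, transporters and linked proteins of mitochondrial and peroxisomal fatty acid oxidation were followed in liver RNA of 12 male mice. The members are 52 mouse genes chosen by symbol for fatty acid activation, beta-oxidation in both organelles and ketone body formation, out of 35275 genes in the expression table. Whole livers came from 4 groups of 3 mice each: wild-type (WT) mice on chow, WT mice on the MCD diet, *Pctp*-/- mice on chow and *Pctp*-/- mice on the MCD diet. The MCD diet lacks methionine and choline and gives mice a fatty liver. *Pctp*-/- mice lack PC-TP, the phosphatidylcholine transfer protein, in the whole body, so every cell type of the liver carries the deletion. The age of the mice and the time on the diet are not given in the sources used here. The comparisons ask how the diet changes these genes in each genotype, how the knockout changes them on each diet, and whether the diet acts differently in the 2 genotypes.

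Fatty acids are burned only after they are joined to coenzyme A. Mitochondria take up long acyl chains as carnitine esters and shorten them by a cycle of dehydrogenation, hydration, a further dehydrogenation and thiolytic cleavage. Peroxisomes shorten very long and branched chains and bile acid precursors by a similar cycle with their own enzymes, and the liver turns part of the acetyl-CoA into ketone bodies. Many genes of both pathways are textbook targets of the PPAR nuclear receptors, the family the study links to PC-TP.

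Levels are FPKM, in which a gene's fragment count is corrected for transcript length and library depth. Uniquely mapped reads numbered 30486576 to 55179468 per library, and the FPKM of 51 members reached the minimum mean of 0.5 for testing. The remaining member, *Eci3*, a peroxisomal enoyl-CoA isomerase, had an FPKM of 0 in 9 libraries and at most 0.137 in the others. *Pctp* itself, which checks the genotype labels, ranged from 1.21 to 7.90 FPKM in the 6 WT libraries and from 0.156 to 0.566 in the 6 *Pctp*-/- libraries, without overlap. The livers carried their defining hepatocyte markers, with a summed FPKM of 9 such genes of 48941 to 55472 in WT mice on chow. The chow and MCD libraries also differed in sequencing: 77.59 to 79.41% of reads mapped uniquely on chow and 85.66 to 87.55% on the MCD diet, and the base error rate was 0.03% against 0.01%. Reads that mapped to more than 1 place made up 4.07 to 4.84% on chow and 6.5 to 7.4% on the MCD diet. Diet and these sequencing differences therefore cannot be told apart in the diet effects below, whereas the genotypes were compared within a diet. Changes per cell and changes in the share of a cell type also cannot be told apart in bulk liver RNA.

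In the set of RefSeq promoters used here, 43 of the 52 members were matched by symbol (build GRCm38.p6). Shown here are 4 stretches upstream of members on which the results turn, 5′ to 3′ on the strand of the named gene and free of annotated exons, with each GC box (GGGCGG, or CCGCCC on the opposite strand) in capitals. The stretch named *Hadhb* is the whole gap between the head-to-head genes *Hadha* and *Hadhb* (chr5:30155163-30155247). The others end just before the start sites of *Acsl3* (chr1:78657575-78657824), *Phyh* (chr2:4918746-4918995) and *Acaa1b* (chr9:119157094-119157343, minus strand).
Hadhb: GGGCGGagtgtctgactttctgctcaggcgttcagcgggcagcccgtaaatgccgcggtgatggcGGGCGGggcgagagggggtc
Acsl3: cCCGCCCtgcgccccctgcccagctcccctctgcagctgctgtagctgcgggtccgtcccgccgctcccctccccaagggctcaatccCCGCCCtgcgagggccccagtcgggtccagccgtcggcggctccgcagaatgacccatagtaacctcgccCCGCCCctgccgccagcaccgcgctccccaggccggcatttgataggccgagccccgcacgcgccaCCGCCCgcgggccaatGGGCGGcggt
Phyh: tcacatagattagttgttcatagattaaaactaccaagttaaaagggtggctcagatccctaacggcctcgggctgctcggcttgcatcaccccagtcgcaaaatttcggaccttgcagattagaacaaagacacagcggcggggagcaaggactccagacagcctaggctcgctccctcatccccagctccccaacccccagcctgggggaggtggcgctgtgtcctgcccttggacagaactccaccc
Acaa1b: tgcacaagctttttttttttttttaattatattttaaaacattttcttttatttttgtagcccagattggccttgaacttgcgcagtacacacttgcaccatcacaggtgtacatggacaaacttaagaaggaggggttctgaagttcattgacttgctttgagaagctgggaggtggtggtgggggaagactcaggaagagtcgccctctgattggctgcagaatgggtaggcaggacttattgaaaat
Within 250 bases upstream on either strand, a GC box stood at 26 of the 43 members (60.5%) and at 35.4% of 27025 genes. Those 27025 genes include many below the expression minimum for testing, and the share among tested genes alone was not taken. The motif AGGTCANAGGTCA, to which PPARs bind with their partner RXR, had no exact match at any of the 43 members and matched at 0.0407% of genes. With up to 2 other letters allowed it stood upstream of *Echs1* and *Etfa*, 4.65% of the members, and at 3.72% of genes. These are matches of letters only, and GC boxes stood at members that fell on the MCD diet, such as *Scp2* and *Acaa1a*, as well as at members that rose.

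On the MCD diet most members moved, some up and more down, and several parts of the pathway held both rises and falls. In WT mice 14 of 51 members were higher (34.5% of the 12466 tested genes were) and 22 were lower (22.5% of tested genes). In *Pctp*-/- mice 15 were higher and 23 lower, against 26% and 24.4% of tested genes. The members had a median log2 change of -0.21 in WT and -0.23 in *Pctp*-/- mice, beside 0.11 and 0.04 over all tested genes. Median-of-ratios scaling between libraries brought the all-gene median in WT to 0.01 and the split of the members to 9 higher and 26 lower, and that of all genes from 4300 and 2810 to 3609 and 3498. The split under that scaling was 12 and 23 in *Pctp*-/- mice. Of the 51 members, 11 were higher in both genotypes, 21 were lower in both, and 0 went opposite ways, with 9 called in neither.

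**Figure D1:**
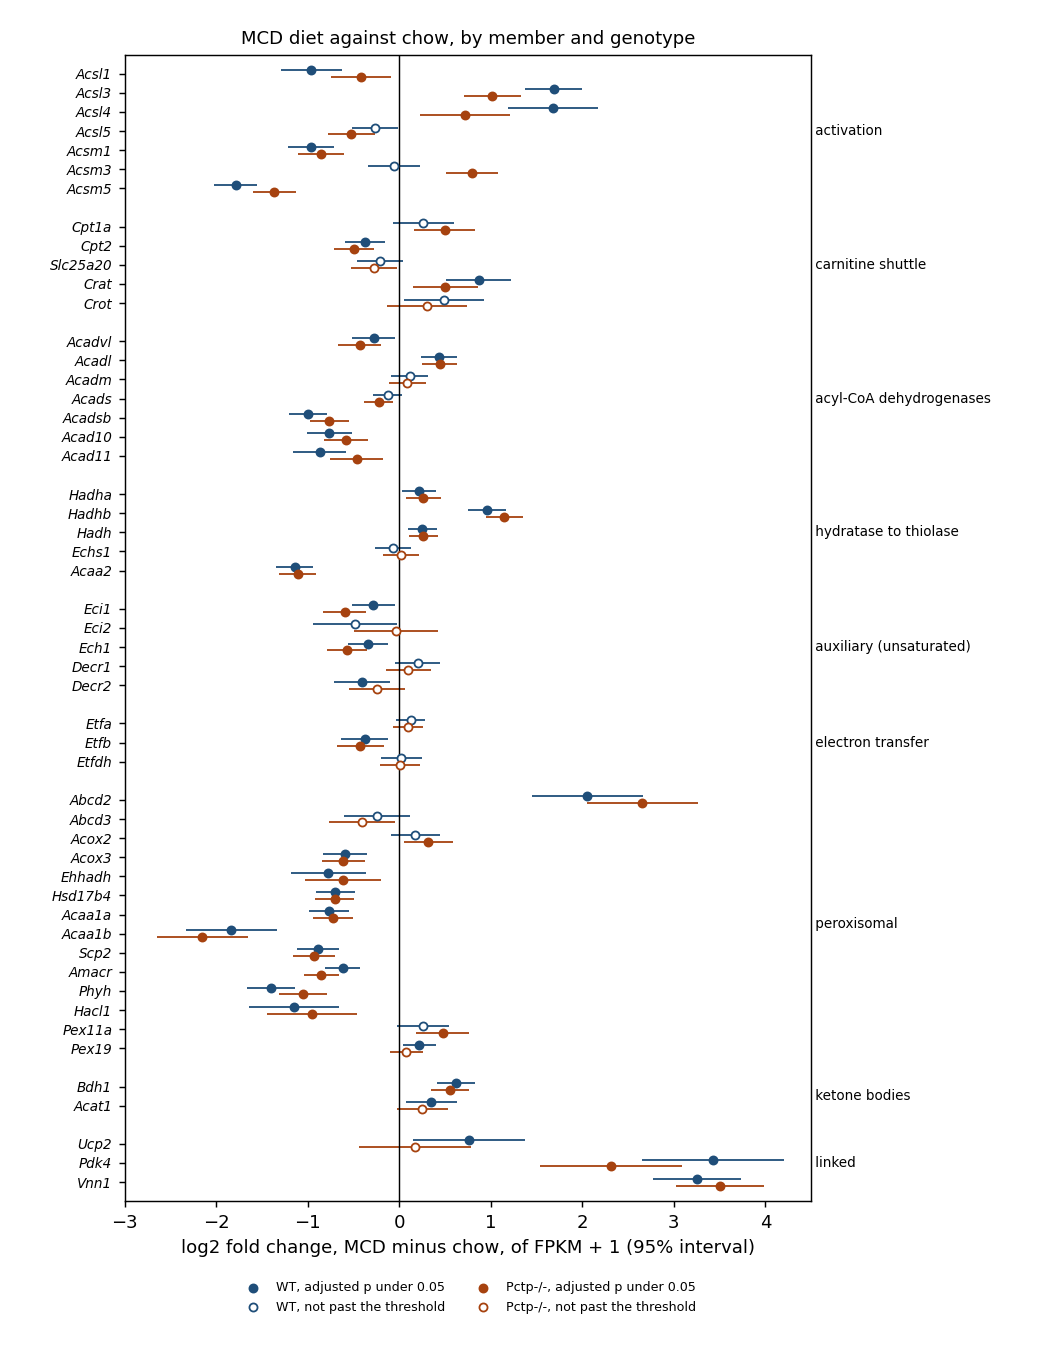
Log2 fold change of FPKM + 1, MCD minus chow, for 51 members in rows grouped by role, in WT (blue) and *Pctp*-/- mice (brown), with 95% intervals from limma and 3 mice per group. Filled points passed an adjusted p of 0.05; peroxisomal members lie mostly left of 0, with *Acaa1b* at -1.84 in WT, while *Pdk4*, *Vnn1* and *Abcd2* lie farthest right.

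Activation enzymes moved in both directions, with 2 higher and 3 lower of 7 in WT and 3 and 4 in *Pctp*-/- mice. This and the following counts by part stand beside 34.5% of tested genes higher and 22.5% lower in WT. In *Pctp*-/- mice these shares were 26% and 24.4%, and some counts by part lie near them. *Acsl3*, a long-chain acyl-CoA synthetase, had an FPKM of 3.24, 2.01 and 2.40 in the WT chow libraries and 11.1, 10.8 and 9.07 in the WT MCD libraries. The *Pctp*-/- libraries had 4.03, 2.78 and 3.52 on chow and 8.12, 7.39 and 8.28 on the MCD diet. Every MCD value lay above every chow value, and *Acsl3* rose by 1.69 ± 0.14 (SE, log2) in WT and 1.02 ± 0.14 in *Pctp*-/- mice (limma, adjusted p = 2.06e-06 and 0.000121). *Acsl4*, which prefers arachidonic acid, had 9.48, 5.14 and 4.65 FPKM in WT on chow and 27.5, 20.7 and 18.2 on the MCD diet. Its values in *Pctp*-/- mice were 7.30, 7.73 and 8.55 on chow and 17.1, 13.2 and 11.0 on the MCD diet. It rose by 1.68 ± 0.23 in WT and 0.72 ± 0.23 in *Pctp*-/- mice (adjusted p = 6.61e-05 and 0.0188), again with no overlap of the diets.

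The medium-chain synthetase *Acsm5*, which lies beside *Acsm1* and *Acsm3* on chromosome 7 (positions 119519463 to 119787513 from the start of *Acsm5* to the end of *Acsm3*), moved the other way. It had 52.6, 59.2 and 51.3 FPKM in WT on chow and 14.8, 15.6 and 14.7 on the MCD diet. In *Pctp*-/- mice the values were 47.2, 54.9 and 47.8 on chow and 17.1, 17.5 and 22.0 on the MCD diet. The log2 change of *Acsm5* was -1.79 ± 0.11 in WT and -1.37 ± 0.11 in *Pctp*-/- mice (adjusted p = 1.63e-07 and 1.54e-06). Its family member *Acsm1* fell by 0.97 and 0.86 on the log2 scale. *Acsl5*, another long-chain synthetase, fell by 0.53 in *Pctp*-/- mice and changed by -0.27 in WT (adjusted p = 0.00281 and 0.0712). *Acsl1*, the main long-chain synthetase of the liver, had 225, 205 and 176 FPKM in WT on chow and 87.4, 108 and 116 on the MCD diet, a log2 change of -0.96 ± 0.15 (adjusted p = 0.000216). In *Pctp*-/- mice *Acsl1* had 200.2, 186 and 182 FPKM on chow and 128, 179.8 and 123 on the MCD diet, a log2 change of -0.42 ± 0.15 (adjusted p = 0.036). That call was lost in 7 of 22 other settings. Among them were leaving out *Pctp*-/- chow replicate 1, 2 or 3, and leaving out *Pctp*-/- MCD replicate 1 or 3.

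**Figure D2:**
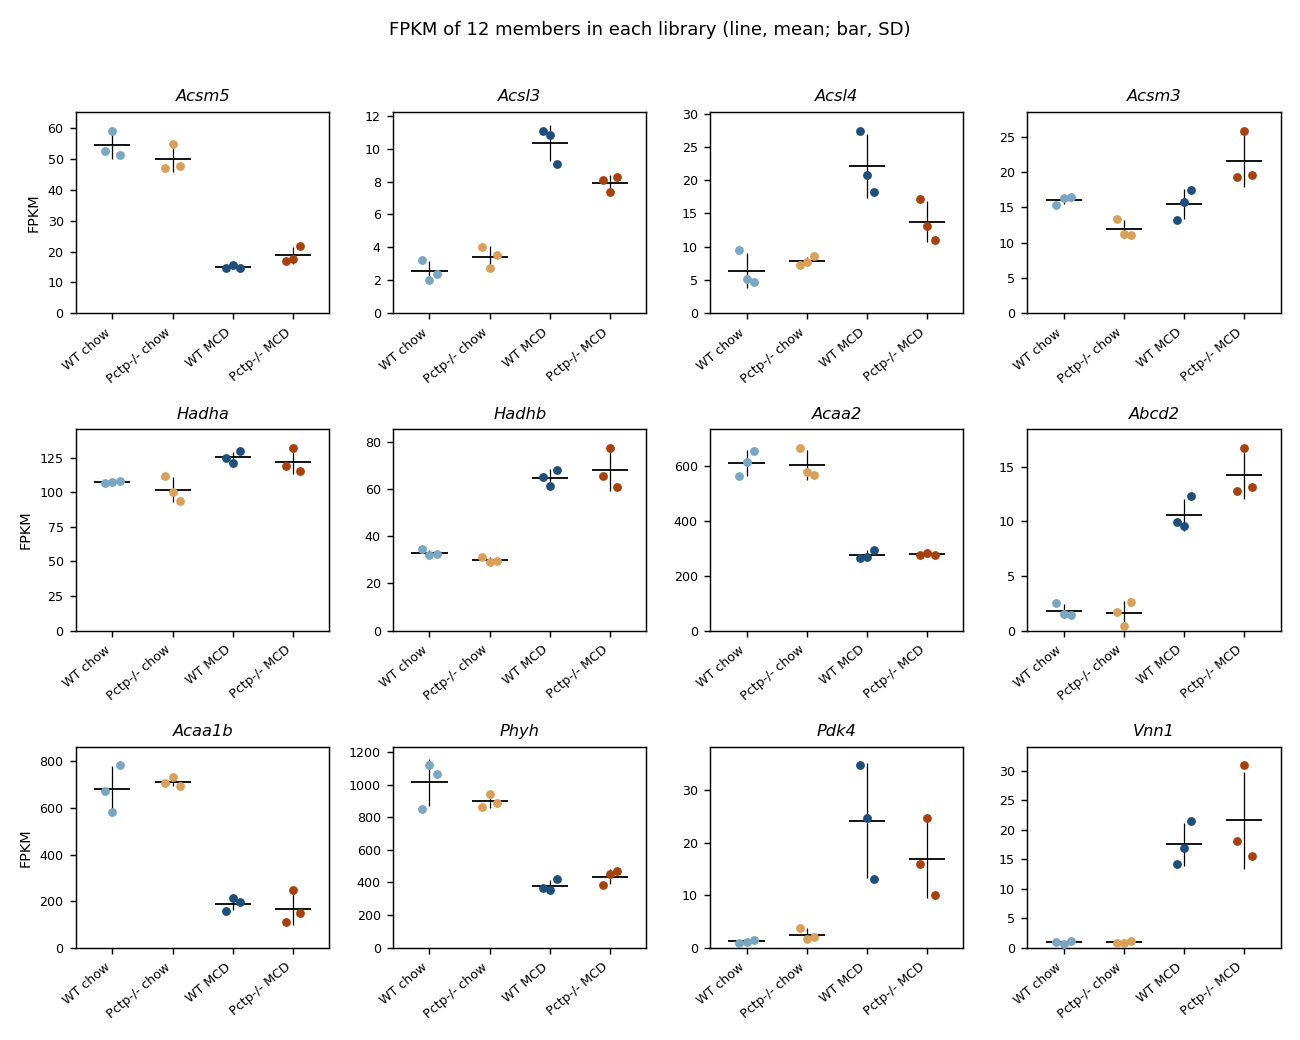
FPKM of 12 members in each library, with the group mean (line) and SD (bar) of 3 mice per group, each panel starting at 0. *Acsl3*, *Acsl4*, *Abcd2*, *Pdk4* and *Vnn1* sit higher in every MCD library than in every chow library, and *Acsm5*, *Acaa2*, *Acaa1b* and *Phyh* lower.

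Of the 5 carnitine shuttle members, 1 rose and 1 fell in WT, and 2 rose and 1 fell in *Pctp*-/- mice. *Cpt1a*, the entry enzyme that malonyl-CoA inhibits, had 83.5, 66.4 and 72.5 FPKM in WT on chow, and 99.8, 85.4 and 81.9 on the MCD diet. *Pctp*-/- mice had 60.3, 58.9 and 51.6 on chow and 71.2, 105 and 69.8 on the MCD diet. The diets overlapped in WT mice (log2 change 0.26 ± 0.15, adjusted p = 0.159) and not in *Pctp*-/- mice, where *Cpt1a* rose by 0.50 ± 0.15 (adjusted p = 0.0168). *Pctp*-/- MCD replicate 2 held the highest of these values and *Pctp*-/- chow replicate 3 the lowest. Without either of these libraries the rise was no longer called. *Cpt2*, which returns the acyl chain to coenzyme A inside the mitochondrion, fell by 0.37 and 0.49 on the log2 scale. *Crat*, the acetyltransferase for short chains, rose by 0.87 in WT and 0.50 in *Pctp*-/- mice, with the *Pctp*-/- call lost in 2 of 22 other settings. The carrier *Slc25a20* and the peroxisomal octanoyltransferase *Crot* did not pass the test in either genotype.

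Among the acyl-CoA dehydrogenases, which open the mitochondrial cycle, *Acadl*, the long-chain enzyme, was the member that rose, by 0.43 in WT and 0.44 in *Pctp*-/- mice. *Acadvl*, for very long chains, fell by 0.28 and 0.43, with the call in WT lost in 10 of 22 other settings, and the short/branched-chain enzyme *Acadsb* fell by 1.00 and 0.77. *Acad10* and *Acad11* fell by 0.76 and 0.87 in WT. The short-chain enzyme *Acads* fell by 0.23 in *Pctp*-/- mice, with the call lost in 3 of 22 other settings. The medium-chain enzyme *Acadm* stayed between 190.5 and 254 FPKM in all 12 libraries and did not pass the test (log2 change 0.11 ± 0.09 in WT).

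The subunits of the trifunctional protein, which carries out the later steps on long chains, moved unequally. *Hadhb*, the beta subunit with the thiolase, had 34.4, 32.0 and 32.5 FPKM in WT on chow and 65.2, 61.1 and 68.1 on the MCD diet. In *Pctp*-/- mice the values were 31.1, 29.1 and 29.6 on chow and 65.3, 77.4 and 60.9 on the MCD diet. It rose by 0.95 ± 0.09 in WT and 1.15 ± 0.09 in *Pctp*-/- mice (log2, adjusted p = 6.6e-06 and 2.14e-06). *Hadha*, the alpha subunit read from the other end of the 85-base gap shown above, was at 93.7 to 112 FPKM in chow libraries and 116 to 132 in MCD libraries. It rose by 0.22 ± 0.09 and 0.26 ± 0.09 (adjusted p = 0.0478 and 0.0236), and the calls were lost in 15 and 6 of 22 other settings. The ratio of *Hadhb* to *Hadha* FPKM was 0.278 to 0.322 in the chow libraries and 0.505 to 0.586 in the MCD libraries, without overlap. Of the *Hadhb* transcript, 52.8% of 100-base stretches also occur in the gene *Gm13910*, which was listed at 3.20 to 3.83 FPKM on chow and 2.36 to 3.57 on the MCD diet. How reads that map to more than 1 place were counted is not given, and their part in the ratio was not tested.

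*Acaa2*, the thiolase that ends the mitochondrial cycle for medium chains, was the third most abundant member. It had 564, 615 and 657 FPKM in WT on chow and 265, 269.7 and 295 on the MCD diet. Its *Pctp*-/- values were 668, 577 and 567 on chow and 275, 285 and 277 on the MCD diet. Its log2 change was -1.14 ± 0.09 and -1.11 ± 0.09 (adjusted p = 1.4e-06 and 2.32e-06), with all MCD values below all chow values. *Hadh*, for shorter chains, rose by 0.25 and 0.26, and the hydratase *Echs1* did not pass the test. The calls of *Hadh* were lost in 2 of 22 other settings in each genotype, median-of-ratios scaling and rescaling to a common total.

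Of the 5 tested auxiliary enzymes for unsaturated chains, 3 fell and 0 rose in WT, and 2 fell in *Pctp*-/- mice. *Ech1*, a dienoyl-CoA isomerase, fell by 0.35 and 0.57, and *Eci1*, the mitochondrial enoyl-CoA isomerase, by 0.28 and 0.60, with the WT call lost in 6 of 22 other settings. The peroxisomal dienoyl-CoA reductase *Decr2* fell by 0.41 in WT, with the call lost in 3 of 22 other settings. The mitochondrial reductase *Decr1* and the isomerase *Eci2* did not pass the test in either genotype. In electron transfer, *Etfb* fell by 0.38 and 0.43, with the WT call lost in 4 of 22 other settings. Its partner *Etfa* and the ubiquinone oxidoreductase *Etfdh* did not pass the test. *Etfb* shares 65.2% of its 100-base stretches with the gene model *Gm45233*, which overlaps it on the same strand. *Gm45233* has no FPKM in the expression table, and its part in the level of *Etfb* was not tested.

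Most peroxisomal members fell on the MCD diet. Their summed FPKM was 3960 to 4305 in the chow libraries and 1978 to 2402 in the MCD libraries. In each genotype 9 of 14 members were called lower, where 22.5% of tested genes were in WT and 24.4% in *Pctp*-/- mice. *Scp2*, *Phyh* and *Acaa1b*, whose values are given below, carried most of this sum in every library. The summed FPKM of all members was 1.56 to 1.73% of that of all genes on chow and 1.01 to 1.22% on the MCD diet. *Scp2*, the sterol carrier protein that also encodes a peroxisomal thiolase, was the most abundant member. It had 1656, 1645 and 1517 FPKM in WT on chow and 845, 819 and 932 on the MCD diet. The *Pctp*-/- mice had 1688, 1726 and 1502 on chow and 878, 945 and 757 on the MCD diet. The diets did not overlap, and *Scp2* fell by 0.89 ± 0.10 and 0.93 ± 0.10 on the log2 scale (adjusted p = 2.32e-05 and 2.21e-05). The pseudogene *Scp2-ps2*, which holds 32.2% of the 100-base stretches of *Scp2*, was listed at 99.2 to 111 FPKM on chow and 18.8 to 27.2 on the MCD diet. Its part in the change of *Scp2* was not tested.

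**Figure D3:**
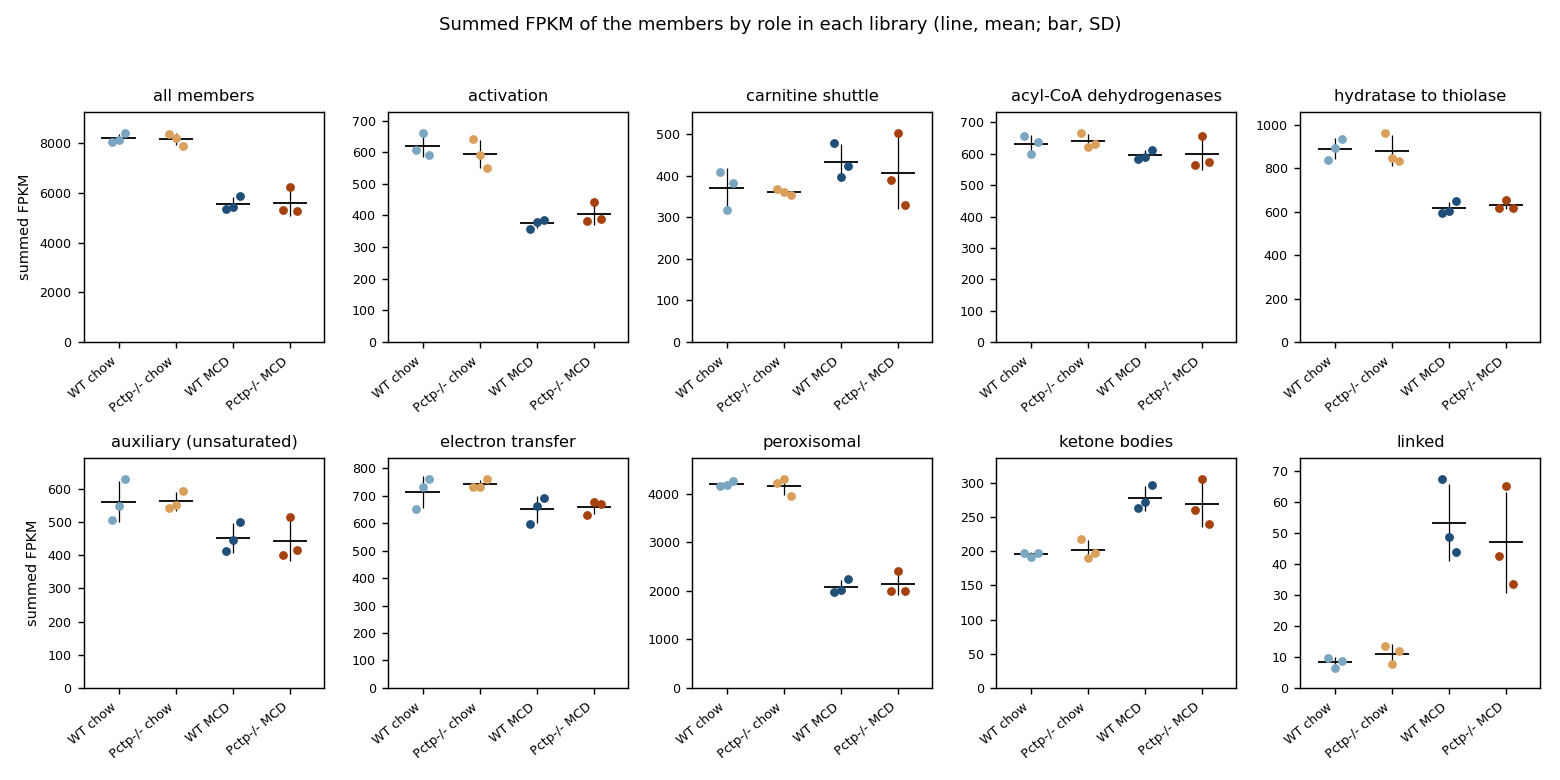
Summed FPKM of the members by role in each library, with the mean (line) and SD (bar) of 3 mice per group, each panel starting at 0. The peroxisomal sum, most of it from *Scp2*, *Phyh* and *Acaa1b*, lies at 3960 to 4305 on chow and 1978 to 2402 on the MCD diet. The sums of the ketone body and linked genes are higher on the MCD diet.

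Both members of phytanic acid alpha-oxidation fell. *Phyh*, which starts the alpha-oxidation of phytanic acid, had 851, 1120.4 and 1067 FPKM in WT on chow and 365, 357 and 421 on the MCD diet. *Pctp*-/- mice had 864, 943 and 889 on chow and 384, 452 and 469.8 on the MCD diet. *Phyh* changed by -1.40 ± 0.12 and -1.05 ± 0.12 (log2, adjusted p = 2.18e-06 and 2.64e-05). *Hacl1*, the lyase of the same pathway, had 155, 155 and 96.9 FPKM in WT on chow and 42.8, 60.2 and 80.5 on the MCD diet. *Hacl1* in *Pctp*-/- mice had 149.7, 165 and 165 on chow and 77.6, 100.2 and 71.2 on the MCD diet. It fell by 1.15 ± 0.23 and 0.95 ± 0.23 (adjusted p = 0.000966 and 0.00398), with WT chow replicate 3 well below the other chow libraries. *Hacl1* shares 52.7% of its 100-base stretches with the gene model *Gm49387*, which overlaps it on the same strand and has no FPKM in the expression table. *Amacr*, the racemase for branched chains and bile acid precursors, fell by 0.62 and 0.85.

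On the scale of log2(FPKM + 1) the thiolase *Acaa1b* had the lowest estimate of any member in both genotypes, though by mean FPKM the chow level in WT was 3.59 times the MCD level for *Acaa1b* and 3.62 times for *Acsm5*. It had 674, 582 and 785 FPKM in WT on chow and 159.9, 214 and 195 on the MCD diet. Its *Pctp*-/- values were 707, 733 and 695 on chow and 110.2, 246 and 148 on the MCD diet. The log2 change was -1.84 ± 0.23 in WT and -2.16 ± 0.23 in *Pctp*-/- mice (adjusted p = 3.51e-05 and 1.39e-05). Its paralog *Acaa1a* fell by 0.77 and 0.72, and the ratio of *Acaa1b* to *Acaa1a* FPKM was 6.65 to 9.24 on chow and 2.34 to 4.61 on the MCD diet. The pair share 22.6% of the 100-base stretches of *Acaa1b*, so reads may be divided between them. The bifunctional enzymes *Ehhadh* and *Hsd17b4* fell by 0.78 and 0.70 in WT, and the oxidase *Acox3* by 0.59.

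The other 5 peroxisomal members were not called lower. *Abcd2*, a transporter of very long acyl chains, had 2.56, 1.47 and 1.45 FPKM in WT on chow and 9.96, 9.57 and 12.3 on the MCD diet. The *Pctp*-/- libraries had 1.69, 0.414 and 2.64 on chow and 12.8, 16.8 and 13.1 on the MCD diet. All MCD values lay above all chow values, and *Abcd2* rose by 2.05 ± 0.28 and 2.66 ± 0.28 (log2, adjusted p = 6.89e-05 and 1.35e-05). Its far more abundant relative *Abcd3* had 78.7 to 149.9 FPKM over the 12 libraries and did not pass the test. *Pex11a*, which helps peroxisomes divide, rose by 0.47 in *Pctp*-/- mice (adjusted p = 0.0102) and changed by 0.26 in WT (adjusted p = 0.113). The oxidase for branched chains and bile acid precursors, *Acox2*, rose by 0.32 in *Pctp*-/- mice (adjusted p = 0.0476), and *Pex19*, a chaperone of peroxisomal membrane proteins, by 0.22 in WT (adjusted p = 0.0421). The call of *Acox2* was lost in 14 of 22 other settings and that of *Pex19* in 15.

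The ketone body enzyme *Bdh1*, which interconverts acetoacetate and beta-hydroxybutyrate, rose by 0.62 ± 0.10 in WT and 0.55 ± 0.10 in *Pctp*-/- mice (log2, adjusted p = 0.00018 and 0.000507). *Acat1*, the mitochondrial acetoacetyl-CoA thiolase, rose by 0.35 in WT (adjusted p = 0.0345, lost in 9 of 22 other settings) and changed by 0.25 in *Pctp*-/- mice (adjusted p = 0.123). The largest rises in WT mice were in 2 genes linked to the pathway, *Pdk4* and *Vnn1*. *Pdk4*, the kinase that turns pyruvate dehydrogenase off, had 0.881, 1.18 and 1.54 FPKM in WT on chow and 34.8, 24.8 and 13.0 on the MCD diet. *Pdk4* in *Pctp*-/- mice had 3.82, 1.60 and 2.14 on chow and 16.0, 24.8 and 10.0 on the MCD diet. It rose by 3.43 ± 0.36 and 2.31 ± 0.36 (adjusted p = 9.09e-06 and 0.000224), and it varied most of all members between mice of the WT MCD group (SD 0.69 on the log2 scale).

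*Vnn1*, a pantetheinase that feeds coenzyme A turnover, was low on chow, with 0.974, 0.711 and 1.12 FPKM in WT and 0.761, 0.789 and 1.20 in *Pctp*-/- mice. On the MCD diet it had 14.3, 17.0 and 21.5 in WT and 18.2, 31.0 and 15.6 in *Pctp*-/- mice. *Vnn1* rose by 3.25 ± 0.22 and 3.51 ± 0.22 (log2, adjusted p = 4.01e-07 and 2.88e-07). *Ucp2*, a mitochondrial carrier that macrophages also express, rose by 0.76 ± 0.28 in WT (adjusted p = 0.0353, lost in 7 of 22 other settings), with overlapping diet groups. The summed FPKM of 8 macrophage markers was 64.1 to 107 in WT on chow and 267 to 522 in WT on the MCD diet, and 8 of 8 were called higher. In *Pctp*-/- mice the sum was 56.6 to 152 on chow and 273 to 341 on the MCD diet, with 4 of 8 called higher. The summed FPKM of 8 stellate cell and fibroblast markers was 32.3 to 58.4 and 136 to 199.6 in WT mice, with 3 of 8 called higher. *Dcn* alone gave 23.0 to 36.9 of this sum on chow and 114 to 155 on the MCD diet. In WT 2 of 6 endothelial, 1 of 4 cholangiocyte and 1 of 3 lymphocyte markers tested were called higher, where 34.5% of all tested genes were. The summed FPKM of the 9 hepatocyte markers in WT on the MCD diet was 66761 to 75101, of which albumin (*Alb*) gave 41402 to 46335, with 3 of the 9 called higher, 2 lower and a median log2 change of -0.03. The part of these cell types in the diet effects on the members was not tested.

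Other genes of these pathways moved in both directions, and more of them fell. Of all tested genes 34.5% rose and 22.5% fell in WT, and 26% rose and 24.4% fell in *Pctp*-/- mice. Of 20 tested genes of acyl-CoA and ketone metabolism outside the members, 4 rose and 10 fell in WT, and 3 rose and 10 fell in *Pctp*-/- mice. *Mlycd*, which removes the CPT1 inhibitor malonyl-CoA, fell by 1.79 ± 0.11 and 2.03 ± 0.11 on the log2 scale, and *Oxct1*, which uses ketone bodies, rose by 0.91 ± 0.20 and 0.82 ± 0.20. *Oxct1* was low, at 0.411 to 1.00 FPKM in the chow libraries and 1.54 to 3.38 in the MCD libraries. Of 8 further activation genes, 0 rose and 6 fell in each genotype, *Slc27a5*, the bile acyl-CoA synthetase, by 2.41 ± 0.15 and 1.83 ± 0.15. Of 29 further peroxisomal genes, 10 rose and 13 fell in WT, and 6 rose and 11 fell in *Pctp*-/- mice. The share that rose in WT was near that of all tested genes. *Pex6*, an ATPase of matrix protein import, fell by 2.50 ± 0.13 and 2.45 ± 0.13, and *Slc25a17*, a peroxisomal carrier, rose by 1.18 ± 0.09 and 0.67 ± 0.09.

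The knockout moved no member past the threshold on chow. None of 51 members was called by limma, where 0.136% of tested genes were, and 3 had an unadjusted p under 0.05, against 6.98% of tested genes. The 4 members with the smallest p were *Acsm3*, *Cpt1a*, *Acsl3* and *Pdk4*. *Acsm3*, a medium-chain synthetase, had 15.3, 16.3 and 16.5 FPKM in WT mice and 13.4, 11.2 and 11.1 in *Pctp*-/- mice, all lower (log2 difference -0.40 ± 0.13, adjusted p = 0.424). The *Cpt1a* values given above were also all lower in *Pctp*-/- mice (-0.37 ± 0.15, adjusted p = 0.647), those of *Acsl3* overlapped (0.33 ± 0.14, adjusted p = 0.679), and those of *Pdk4* were all higher (0.64 ± 0.36, adjusted p = 0.798). Groups did not overlap for 3 members that were higher and 4 that were lower, where 10.6% of tested genes did not. The 95% interval lay within 0.5 on either side of 0, on the log2 scale, for 40 members and within 1 for 50, and the median half-width was 0.25.

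On the MCD diet again 0 of 51 members were called in *Pctp*-/- against WT mice, against 0.818% of tested genes, and 7 had an unadjusted p under 0.05, against 16.3%. *Acsm3* had 13.2, 15.8 and 17.5 FPKM in WT mice and 19.3, 25.9 and 19.5 in *Pctp*-/- mice, all higher, a difference of 0.45 ± 0.13 (log2, adjusted p = 0.127). From the values above, *Acsl1* was higher in all 3 *Pctp*-/- mice (0.45 ± 0.15, adjusted p = 0.17), as was *Acsm5* (0.30 ± 0.11, adjusted p = 0.198), and *Acsl4* was lower in all 3 (-0.65 ± 0.23, adjusted p = 0.185). These are the 4 members with the smallest p, and none was called. *Pctp*-/- MCD replicate 2 held the highest values of *Acsl1* and *Acsm3* in this comparison, 179.8 and 25.9 FPKM. Groups did not overlap for 7 members that were higher and 5 that were lower, while 26.6% of tested genes did not overlap. The median difference was -0.01 over the members and -0.09 over all tested genes, and 0.10 and -0.01 after median-of-ratios scaling. The interval lay within 0.5 of 0 for 35 members and within 1 for 49. All 8 macrophage markers had a negative log2 difference in this comparison (median -0.53), as had 8767 of the 12466 tested genes. Negative too were 6 of 6 endothelial, 7 of 8 stellate cell and fibroblast, and 4 of 4 tested cholangiocyte markers. Among the other lists, 2 of 3 tested lymphocyte and 2 of 9 hepatocyte markers were negative. None of these markers was called. Their part in the values of the members was not tested.

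**Figure D4:**
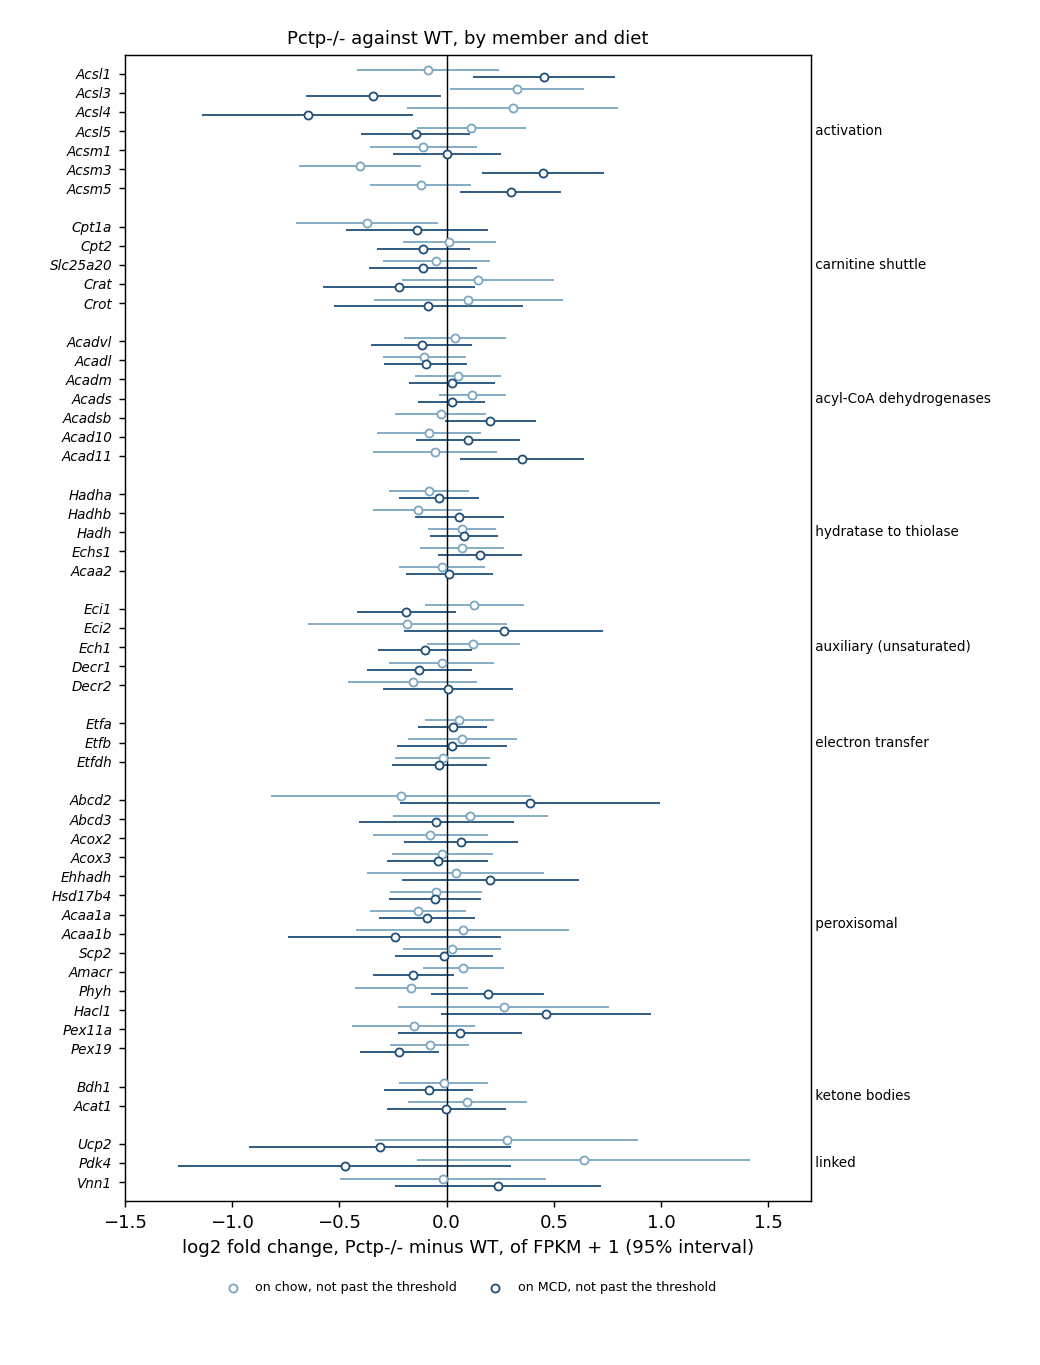
Log2 fold change of FPKM + 1, *Pctp*-/- minus WT, for 51 members in rows grouped by role, on chow (light blue) and on the MCD diet (dark blue), with 95% intervals from limma and 3 mice per group. No point passed an adjusted p of 0.05, so all are open; differences were between -0.40 and 0.64 on chow and between -0.65 and 0.46 on the MCD diet.

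The diet effects of the genotypes were compared directly as the difference between them. None of 51 members was called by limma, where 0.0963% of tested genes were, and 6 had an unadjusted p under 0.05, against 15.1% of tested genes. For *Acsm3*, which did not pass the test in WT (-0.06 ± 0.13) and rose in *Pctp*-/- mice (0.80 ± 0.13, adjusted p = 0.000352), the difference was 0.85 ± 0.19 (log2, adjusted p = 0.0925). The rises of *Acsl3* and *Acsl4* were smaller in *Pctp*-/- mice by 0.67 ± 0.20 and 0.96 ± 0.32 (adjusted p = 0.16 and 0.19), and the fall of *Acsm5* was smaller by 0.42 ± 0.15 (adjusted p = 0.221). The 8 macrophage markers had a median difference of -0.76, all 8 negative and 0 called. Over all tested genes 8049 of 12466 were negative, with a median of -0.10. The part of the macrophage markers was not tested. That 4 members were called in WT mice alone and 6 in *Pctp*-/- mice alone is thus not shown to be a difference between the genotypes.

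Members also shifted together between mice of a group. In *Pctp*-/- MCD replicate 2 they lay 0.15 above the group mean (median over 51, log2), while the median over all tested genes was -0.03. This library was the highest of its 3 for 37 of 51 members, against 25.4% of tested genes, and it held the highest values of *Cpt1a*, *Ehhadh*, *Acaa1b* and *Vnn1*. In WT MCD replicate 3 the members lay 0.07 above the group mean and all genes 0.05 below. Without *Pctp*-/- MCD replicate 2, 11 members were higher and 26 lower on the MCD diet in *Pctp*-/- mice, and the knockout on the MCD diet and the difference of diet effects still called none.

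**Figure D5:**
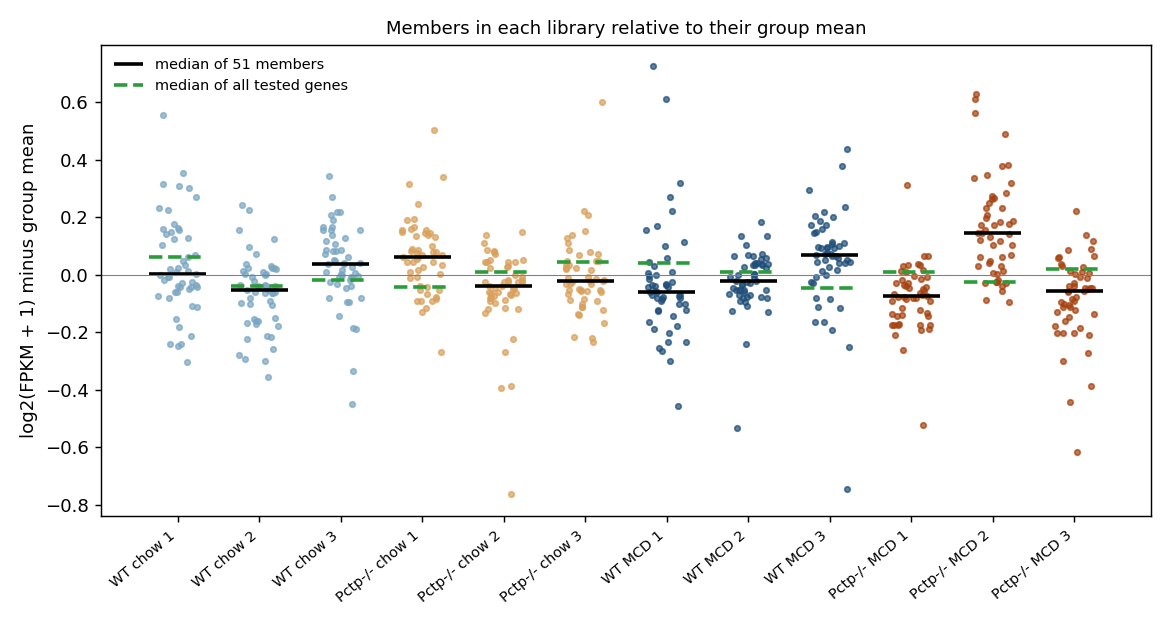
Each point is 1 of 51 members in 1 library, as log2(FPKM + 1) minus the mean of the 3 mice of its group; black lines are medians over the members and green dashed lines medians over all tested genes. The members of *Pctp*-/- MCD replicate 2 sit highest, with a median of 0.15.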

How the data were processed

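Total liver RNA was sequenced by a commercial provider. The authors deposited a table of FPKM by gene and library and another table with read totals and mapping percentages per library; the submitters' processing notes name the build mm10, and the aligner, counter and annotation are not given in the sources used here. The percent and read values were used for depth and quality only. FPKM are not counts, so the Wald test of the study was not run. The 12466 genes (of 35275) whose FPKM averaged 0.5 or more across libraries were fitted with limma version 3.58.1 in R version 4.3.3 on log2(FPKM + 1), with 1 mean per group, a shared spread (8 residual degrees of freedom) and a mean-variance trend. Fold changes are of FPKM + 1, which understates the change of low genes. A gene was called at a Benjamini-Hochberg adjusted p under 0.05 over all tested genes, two-sided, with no minimum fold, after the study's rule. The script was tested on simulated data.

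The 52 members were matched by Ensembl identifier through GENCODE M21, which also gave positions and shared stretches; 14 members overlap another gene on their own strand and 25 on the opposite strand, and whether counting used strand is not given. Promoters came from RefSeq. Members and lists were chosen with earlier results of these data known. Values of all 12 libraries are given for the 5 largest rises and falls among called members in each genotype, the 4 smallest p where none was called, and the 3 most abundant members; of the other lists at most 2 genes are named per direction. The replicate numbers name different mice. Alternatives were the pseudocount, the filter, the scaling, a replicate block, fits of only the groups compared, limma's options, a minimum fold and leaving out each library. Figures were drawn with matplotlib.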

Additional observations from a re-analysis of the deposited data

How the results depend on the processing

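Of the 36 members called on the MCD diet in WT and the 38 in *Pctp*-/- mice, 26 and 28 were called under each of the 22 alternatives without a minimum fold, and none changed direction. Those 22 include leaving out each of the 12 libraries. Leaving out a mouse of the other genotype alters the shared spread but not the estimate. No member was called for the knockout on either diet, or for the difference of the diet effects, under any alternative run. With a log2 fold change of at least 1, 5 members were higher and 5 lower in WT and 5 and 4 in *Pctp*-/- mice. In WT 9 were higher, in place of 14, after median-of-ratios scaling and also after rescaling to a common total. Leaving out 1 library gave 10 to 14 higher and 18 to 23 lower in WT and 11 to 15 and 19 to 26 in *Pctp*-/- mice.

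Over all tested genes, the knockout on chow called 17 genes, and 10 without the filter, 11 at a mean FPKM of at least 5, 4 from the groups compared alone and 8 to 34 without 1 library (34 without WT chow replicate 1). On the MCD diet it called 102, and 19 from the groups compared alone, 33 with the minimum fold and 27 to 173 without 1 library (27 without *Pctp*-/- MCD replicate 2, 173 without WT MCD replicate 3). The diet called 7110 genes in WT and 6276 in *Pctp*-/- mice, 4448 and 4047 at a mean FPKM of at least 5, 1777 and 1343 with the minimum fold. The difference of the diet effects called 12, and 3 with a pseudocount of 0.1, 6 after median-of-ratios scaling, 7 without the trend and 0 to 60 without 1 library; without *Pctp*-/- MCD replicate 2 it called 0, and without WT chow replicate 1 or WT MCD replicate 3 it called 60. The cause was not tested.

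Same-numbered libraries came from different mice, and whether they share more than a number is not given in the sources used here. Their deviations correlated at 0.0627 to 0.192 between genotypes on chow, -0.0972 to 0.136 between genotypes on the MCD diet, 0.0409 to 0.199 between diets in WT and -0.0206 to 0.0178 between diets in *Pctp*-/- mice. Libraries with different numbers correlated, in the same order, at -0.188 to 0.0926, -0.204 to 0.160, -0.210 to 0.102 and -0.0423 to 0.0270. The cause of these correlations was not tested. With a replicate block, 32 genes were called for the knockout on chow, 115 on MCD and 59 for the difference, with no member among them, and the diet split was 12 and 23 members in WT and 14 and 23 in *Pctp*-/- mice. With 3 mice per group the 95% intervals of the knockout effects on the members had half-widths of 0.16 to 0.78 on the log2 scale (median 0.25), before any adjustment.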
